A study of Mus musculus with 4 samples.

Results

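The 10 genes described here encode the transcription factors, receptors and ligand by which regulatory T cells and activated lymphocytes are recognised and restrained: Foxp3, Ikzf2, Gata3, Il2ra, Ctla4, Icos, Pdcd1, Cd274, Tnfrsf4 and Tnfrsf18. They were chosen by name, with earlier results of these data known, from the 39179 genes listed for each library. Read counts came from 4 libraries of whole mouse skin on the C57BL/6 background: 2 of lesional skin from Itch KO mice, which lack the ubiquitin ligase Itch, and 2 of skin from wild-type (WT) mice. The labels record the phenotype "Inflammation" for both genotypes, and give no age, sex, body site or number of animals, so p-values describe the spread between libraries, which may be technical. The comparison asked how lesional Itch KO skin differed from WT skin.

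Regulatory T cells hold back immune responses and depend on the transcription factor FOXP3. They carry the interleukin-2 receptor alpha chain and compete for B7 ligands through CTLA-4, while ICOS, OX40 (Tnfrsf4) and GITR (Tnfrsf18) give costimulatory signals. Activated T cells switch on PD-1 (Pdcd1), which is engaged by PD-L1 (Cd274) on tissue and myeloid cells. In normal mouse skin regulatory T cells sit largely around hair follicles, and several of the 10 genes are also used by cells that are not regulatory T cells. Bulk RNA cannot tell fewer cells of a type from less RNA per cell.

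Gene reads numbered 16008351 and 15881860 in the Itch KO libraries and 15407932 and 15144957 in the WT libraries. Itch itself had 185 and 184 counts in Itch KO skin and 1450 and 1634 in WT skin, so each library lay on the side of its label. Krt5, a basal keratinocyte keratin, stood at 2845 and 2935 CPM in Itch KO and at 2920 and 2848 CPM in WT, where CPM are counts scaled to library size. Both Itch KO libraries carried Y-linked Eif2s3y (69.5 and 73.7 CPM, against 0.133 and 0.126 CPM in WT) and both WT libraries carried Xist (0.947 and 0.892 CPM in Itch KO, against 1055 and 631 CPM in WT). Genotype and sex therefore cannot be told apart, which touches X-linked Foxp3 in particular, and also X-linked Il2rg and Cd40lg. The WT libraries also differed from each other: the 8 muscle genes summed to 1187 and 990 CPM in Itch KO, against 16212 CPM in WT replicate 1 and 2704 CPM in WT replicate 2, and the inner root sheath genes summed to 6290 and 9594 CPM in Itch KO, against 72.4 and 8790 CPM in WT.

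Promoters are shown for Foxp3, Ctla4, Il2ra, Pdcd1 and Tnfrsf4, the genes with a promoter entry that stood higher in both Itch KO libraries. RefSeq (GRCm38.p6) promoter entries were found for 8 of the 10 genes, and Icos and Ikzf2 were not matched. Each line gives the 250 bases before the annotated start, 5′ to 3′ on the gene's strand, with matches in capitals. The motifs searched on both strands were TGANTCA (AP-1), TTCNNNGAA (gamma-activated site) and TGGAAA (NFAT core).
Foxp3 (the second of 2 entries, chrX:7580233-7580482, plus strand): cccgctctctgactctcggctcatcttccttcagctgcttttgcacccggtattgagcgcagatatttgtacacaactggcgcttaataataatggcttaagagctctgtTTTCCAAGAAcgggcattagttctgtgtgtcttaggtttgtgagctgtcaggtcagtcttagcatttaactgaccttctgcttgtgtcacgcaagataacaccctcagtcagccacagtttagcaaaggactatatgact
Ctla4 (chr1:60908775-60909024, plus strand): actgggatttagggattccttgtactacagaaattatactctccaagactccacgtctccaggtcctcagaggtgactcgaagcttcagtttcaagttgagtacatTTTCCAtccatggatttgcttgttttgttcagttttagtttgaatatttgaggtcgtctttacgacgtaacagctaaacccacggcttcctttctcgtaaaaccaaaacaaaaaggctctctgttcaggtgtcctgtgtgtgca
Il2ra (chr2:11642542-11642791, plus strand): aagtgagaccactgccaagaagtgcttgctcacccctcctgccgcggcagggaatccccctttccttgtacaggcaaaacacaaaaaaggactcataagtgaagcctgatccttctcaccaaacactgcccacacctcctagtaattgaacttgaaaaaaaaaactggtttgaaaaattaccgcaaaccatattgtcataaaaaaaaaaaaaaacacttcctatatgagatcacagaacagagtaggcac
Pdcd1 (chr1:94052554-94052803, minus strand): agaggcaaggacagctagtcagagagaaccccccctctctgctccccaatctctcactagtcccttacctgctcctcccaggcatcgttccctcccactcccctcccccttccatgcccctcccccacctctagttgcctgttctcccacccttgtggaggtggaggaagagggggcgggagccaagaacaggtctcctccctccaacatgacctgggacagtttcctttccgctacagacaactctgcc
Tnfrsf4 (chr4:156013445-156013694, plus strand): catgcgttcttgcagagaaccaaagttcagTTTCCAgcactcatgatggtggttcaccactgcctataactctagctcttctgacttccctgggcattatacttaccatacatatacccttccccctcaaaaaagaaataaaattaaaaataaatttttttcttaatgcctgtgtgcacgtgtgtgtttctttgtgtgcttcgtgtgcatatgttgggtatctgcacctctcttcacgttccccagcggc
In the Foxp3 window shown an NFAT core 140 to 135 bases before the start overlapped a gamma-activated site at 139 to 131, and in the Ctla4 window an NFAT core lay at 144 to 139 and in the Tnfrsf4 window at 220 to 215. The first Foxp3 entry, not shown, and the Il2ra and Pdcd1 windows held none of the 3 motifs, which says only that these letters were not in these windows. Among 32536 distinct promoter windows of this length, 18.6% held TGGAAA, 7.04% TTCNNNGAA and 6.73% TGANTCA.

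The 10 genes did not behave as a block. Pdcd1, Icos, Il2ra, Ctla4 and Foxp3 stood higher in Itch KO skin, Tnfrsf4 and Tnfrsf18 were near level, Ikzf2 and Gata3 stood lower, and Cd274 was high in 1 Itch KO library only. The genotypes did not overlap for 8 of the 10 genes, against 61.2% of all tested genes. For 6 of them every Itch KO value exceeded every WT value, as for 31.2% of all, and for 2 every Itch KO value was the smaller, as for 30% of all. None of the 10 passed the edgeR quasi-likelihood test at an adjusted p under 0.05, a threshold that 0.00601% of the 16651 tested genes passed as higher and 0% as lower. At an unadjusted p under 0.05 edgeR gave 3 genes higher (Pdcd1, Icos and Il2ra; 12% of all tested genes were) and 2 lower (Ikzf2 and Gata3; 10.9% of all were). DESeq2 called 2 higher (Pdcd1 and Icos; 7.83% of all) and 2 lower (Ikzf2 and Gata3; 6.16% of all). The median log2 fold change over the 10 was 0.96, against 0.0084 over all tested genes, and 0.38 without Itch KO replicate 1.

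**Figure D1:**
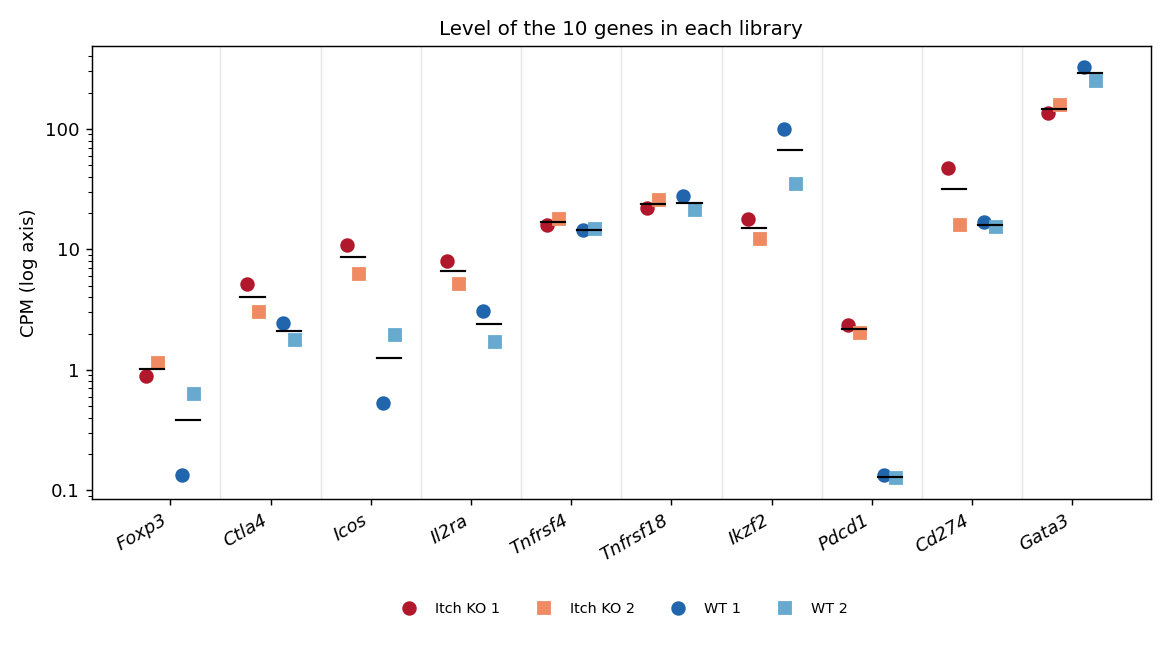
CPM (log axis) of the 10 genes, 1 point per library, with Itch KO libraries in red and orange left of WT libraries in blue and short lines at the group means. The libraries of the genotypes overlap for Tnfrsf18 and Cd274 only; Ikzf2 and Gata3 lie lower in Itch KO and the other 6 higher.

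Pdcd1, the inhibitory receptor PD-1 (ENSMUSG00000026285, GRCm38 chromosome 1, 94038305 to 94052553, minus strand), showed the largest difference among the 10. It had 37 and 32 counts in the Itch KO libraries against 2 and 2 in the WT libraries, or 2.34 and 2.04 CPM against 0.133 and 0.126 CPM. The means were 2.19 ± 0.21 CPM in Itch KO and 0.130 ± 0.005 CPM in WT (SD, n = 2 each), so the groups were far apart. The WT SD rests on 2 counts in each library, too few to measure the spread between libraries. The log2 fold change was 3.99 (SE 0.49, edgeR adjusted p = 0.0658, DESeq2 adjusted p = 0.0043). From group totals of 69 and 4 counts the ratio was 16.9, with an exact 95% counting interval of 6.30 to 63.7 that holds no variation between animals. Pdcd1 entered the test only through its Itch KO libraries, since both WT libraries lay under the filter level of 0.640 CPM.

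The ligands of PD-1 differed from each other. Cd274, PD-L1 (ENSMUSG00000016496, chromosome 19, 29367455 to 29388095, plus strand), stood at 47.6 and 16.1 CPM in Itch KO against 16.7 and 15.4 CPM in WT. Only Itch KO replicate 1 was high, by 2.96-fold over replicate 2, which lay within the WT range (log2 fold change 0.98, SE 0.56, edgeR adjusted p = 0.348, DESeq2 adjusted p = 0.307). Without that library the log2 fold change was -0.0079. Pdcd1lg2, the other PD-1 ligand PD-L2, lies 22.8 kb from Cd274 with no protein-coding gene between. It stood at 5.43 and 8.60 CPM in Itch KO against 0.333 and 0.316 CPM in WT, with both Itch KO libraries far above WT (log2 fold change 4.40, SE 0.49, edgeR adjusted p = 0.0624, DESeq2 called it). Like Pdcd1, it entered the test only through its Itch KO libraries.

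Genes that answer interferon-gamma split the Itch KO libraries in the same way as Cd274. The chemokine gene Cxcl9 stood at 88.2 and 10.2 CPM in Itch KO against 9.53 and 9.66 CPM in WT. Gbp2, a guanylate-binding protein gene, stood at 138 and 32.6 CPM against 42.9 and 29.9 CPM. Ifng itself had 21 and 4 counts in Itch KO against 2 and 4 in WT and was too low to be tested. In each of these the first Itch KO library stood apart, while Socs1, a feedback inhibitor of cytokine signalling, was level between Itch KO libraries at 16.7 and 20.1 CPM, against 6.60 and 6.25 CPM in WT. Of 9 tested interferon-gamma genes, 3 had an unadjusted p under 0.05 in edgeR, all higher, and none passed after adjustment. Cells that can carry PD-L1 include macrophages and monocytes. Their 10 genes summed to 2920 and 1888 CPM in Itch KO against 383 and 371 CPM in WT, with none at 0. All but Cd163 and Mrc1 were likewise higher in Itch KO replicate 1 than in replicate 2. Cd14 was the most unequal, at 517 and 121 CPM in Itch KO, 4.28-fold apart, against 6.40 and 8.77 CPM in WT. The part of these cells in the Cd274 level was not tested.

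**Figure D2:**
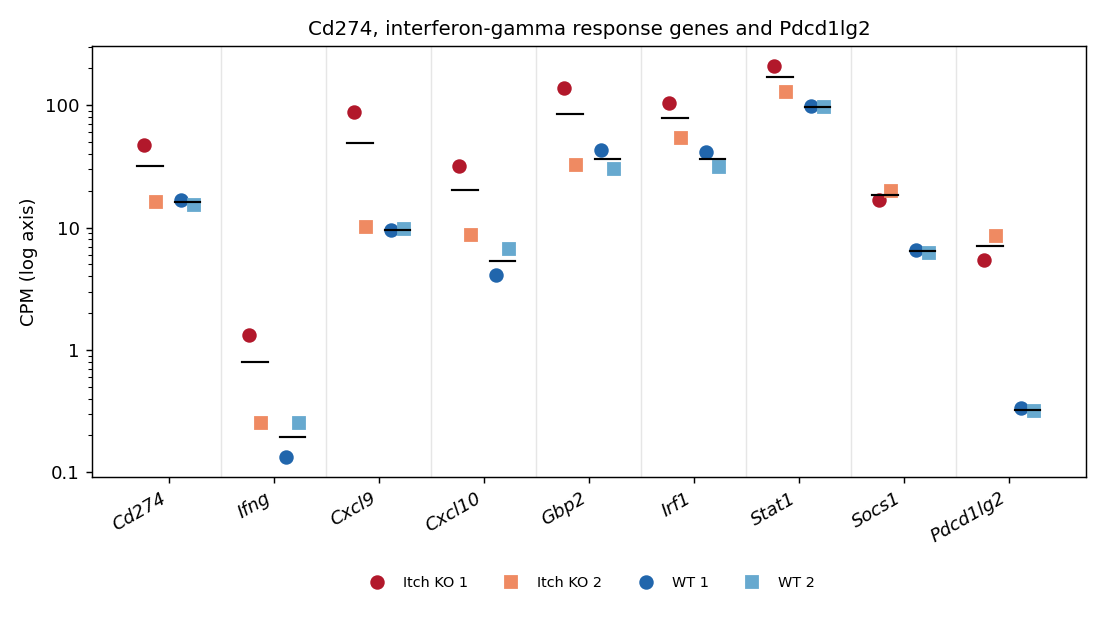
CPM (log axis) of Cd274, 7 interferon-gamma genes and Pdcd1lg2 in each library, Itch KO left of WT, with lines at group means. Cd274, Ifng, Cxcl9, Cxcl10 and Gbp2 are high in Itch KO replicate 1 alone, whereas Socs1 and Pdcd1lg2 are higher in both Itch KO libraries.

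Icos, the inducible costimulator of T cells and a neighbour of Ctla4 (ENSMUSG00000026009, chromosome 1, 60977927 to 61000320, plus strand), came next in size. It had 173 and 98 counts in Itch KO against 8 and 31 in WT, or 10.9 and 6.24 CPM against 0.533 and 1.96 CPM. Both Itch KO libraries lay well above both WT libraries, although the WT libraries themselves were unequal (8.59 ± 3.31 CPM in Itch KO and 1.25 ± 1.01 CPM in WT, SD, n = 2 each). The log2 fold change was 2.77 (SE 0.74, edgeR adjusted p = 0.152, DESeq2 adjusted p = 0.00849), and 2.13 without WT replicate 1. Its ligand gene Icosl stood at 37.4 and 30.8 CPM against 9.60 and 17.3 CPM, again with no overlap (log2 fold change 1.34, edgeR adjusted p = 0.150, DESeq2 adjusted p = 0.0188).

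Ctla4, which encodes the B7-binding inhibitory receptor (ENSMUSG00000026011, chromosome 1, 60887000 to 60915832, plus strand), lies 62.1 kb from Icos and 114 kb from Cd28, with no other protein-coding gene in either gap. It stood at 5.12 and 2.99 CPM in Itch KO against 2.47 and 1.77 CPM in WT. The groups did not overlap, but the lower Itch KO library and the higher WT library were close (log2 fold change 0.94, SE 0.46, edgeR adjusted p = 0.299, DESeq2 adjusted p = 0.402). Without Itch KO replicate 1 the log2 fold change was 0.49. Cd28, the activating receptor for the same ligands, stood at 2.97 and 1.85 CPM against 1.47 and 0.884 CPM, with a like log2 difference of 1.03 (SE 0.50, edgeR adjusted p = 0.292). The ligands were further apart than the receptors: Cd80 stood at 8.40 and 5.61 CPM against 0.733 and 0.947 CPM (log2 fold change 3.05, SE 0.44, edgeR adjusted p = 0.0750, called by DESeq2). Cd86 stood at 23.8 and 16.7 CPM in Itch KO against 9.73 and 6.19 CPM in WT (log2 fold change 1.35, edgeR adjusted p = 0.151, DESeq2 adjusted p = 0.0211). The difference between ligands and receptors was not tested.

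Il2ra, the high-affinity chain of the interleukin-2 receptor, CD25 (ENSMUSG00000026770, chromosome 2, 11642807 to 11693193, plus strand), stood at 7.96 and 5.16 CPM in Itch KO against 3.07 and 1.70 CPM in WT. Every Itch KO value exceeded every WT value (log2 fold change 1.46, SE 0.48, edgeR unadjusted p = 0.0342 and adjusted p = 0.190, DESeq2 adjusted p = 0.101). The shared cytokine receptor chain Il2rg stood at 34.2 and 29.5 CPM against 10.3 and 6.88 CPM (log2 fold change 1.89, SE 0.29, edgeR adjusted p = 0.0785, called by DESeq2). Il2rb, the beta chain, overlapped between groups at 13.3 and 9.18 CPM in Itch KO and 11.3 and 5.18 CPM in WT. Il2, the ligand, had 0 and 4 counts in Itch KO and 0 and 3 in WT, too few reads to detect any difference.

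Foxp3, the lineage factor of regulatory T cells (ENSMUSG00000039521, chromosome X, 7573644 to 7595245, plus strand), was the rarest of the 10 in Itch KO skin per kilobase. It had 14 and 18 counts in Itch KO against 2 and 10 in WT, or 0.884 and 1.15 CPM against 0.133 and 0.631 CPM. The groups did not overlap, and the WT libraries were far apart (log2 fold change 1.38, SE 0.77, edgeR adjusted p = 0.341, DESeq2 adjusted p = 0.566). The log2 fold change was 0.68 without WT replicate 1 and 2.86 without WT replicate 2. From totals of 32 and 12 counts the ratio was 2.61, with an exact counting interval of 1.31 to 5.56. Foxp3 has 4577 exon bases, and its overlaps with the exons of 4 neighbours add up to 2082 bases. A base shared with more than 1 neighbour is counted for each. Among the neighbours are opposite-strand Ppp1r3f (2.78 and 2.61 CPM in Itch KO, 3.87 and 2.59 CPM in WT) and Ccdc22 (0 counts in every library). The counts of Foxp3 are therefore uncertain where the strand setting is not given.

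The paired costimulatory receptors on chromosome 4 were near level. Tnfrsf4, OX40 (ENSMUSG00000029075, 156013843 to 156016612, plus strand), stood at 15.9 and 17.7 CPM in Itch KO against 14.5 and 14.7 CPM in WT. The Itch KO libraries lay just above WT (log2 fold change 0.20, SE 0.22, edgeR adjusted p = 0.597). Tnfrsf18, GITR (ENSMUSG00000041954, 156026164 to 156028895, plus strand), begins 9.55 kb further along and stood at 21.98 and 25.9 CPM in Itch KO against 27.6 and 21.3 CPM in WT. Its libraries overlapped, and its log2 fold change of -0.030 (SE 0.24, edgeR adjusted p = 0.947) turned positive in 3 of 11 alternatives, at most to 0.17. Antisense Gm16008 overlaps Tnfrsf18, with 0.695 and 0.382 CPM in Itch KO and 1.40 and 0.821 CPM in WT. The OX40 ligand gene Tnfsf4 had 9 and 4 counts in Itch KO against 1 and 0 in WT and was not tested. The GITR ligand gene Tnfsf18 overlapped between groups, at 0.379 and 1.34 CPM in Itch KO and 2.73 and 0.631 CPM in WT.

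**Figure D3:**
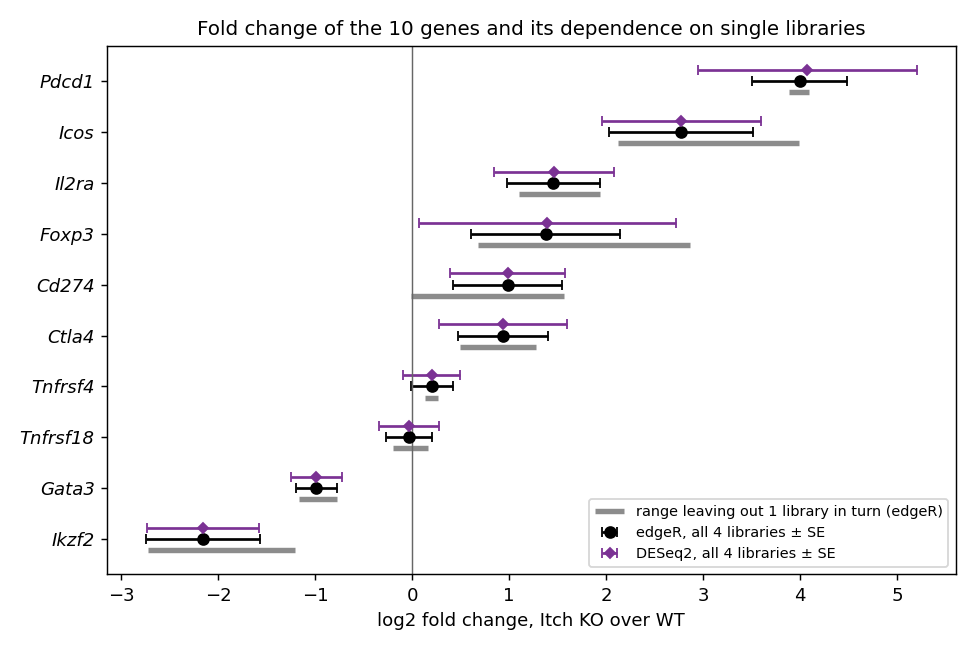
Log2 fold change of Itch KO over WT for each of the 10 genes: black points are edgeR and purple diamonds DESeq2, both ± SE, and grey bars span the edgeR values with each library left out in turn. Pdcd1 moves least relative to its size, from 3.89 to 4.09, but has only 2 counts in each WT library, too few to measure their spread. The Cd274 bar reaches -0.0079 and the Tnfrsf18 bar crosses 0.

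Ikzf2, the transcription factor Helios that marks many regulatory T cells (ENSMUSG00000025997, chromosome 1, 69531214 to 69687245, minus strand), stood lower in Itch KO, opposite to Foxp3. It stood at 17.7 and 12.3 CPM in Itch KO against 99.5 and 34.6 CPM in WT. Both Itch KO libraries lay below both WT libraries, and WT replicate 1 was 2.88-fold above WT replicate 2 (15.0 ± 3.9 CPM in Itch KO and 67.1 ± 45.9 CPM in WT, SD, n = 2 each). The log2 fold change was -2.16 (SE 0.59, edgeR adjusted p = 0.156, DESeq2 adjusted p = 0.00297), and -1.21 without WT replicate 1.

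Genes of the epidermal gamma delta T cell receptor showed a like split between the WT libraries. Tcrg-V5 stood at 0.632 and 0.701 CPM in Itch KO against 4.8 and 1.51 CPM in WT, 3.17-fold apart in WT. Trdv4 stood at 1.45 and 0.765 CPM against 7.20 and 2.02 CPM, 3.56-fold apart in WT. Ccr4, a skin-homing chemokine receptor also listed among the regulatory T cell genes, stood at 3.73 and 3.19 CPM against 29.7 and 10.7 CPM. The lymphocyte receptor Cd96 stood at 2.02 and 1.72 CPM against 8.40 and 3.03 CPM. Of 8 tested gamma delta T cell genes 1 was lower at an unadjusted p under 0.05 in edgeR, and none passed after adjustment in edgeR or DESeq2. The list summed to 35.7 and 39.2 CPM in Itch KO against 42.3 and 55.0 CPM in WT, with no gene at 0. The largest part of that sum was Sox13, at 24.8 and 33.6 CPM in Itch KO and 16.3 and 43.4 CPM in WT. Sox13, Cd163l1 and Blk were lower in WT replicate 1 than in WT replicate 2, whereas every T cell receptor gene of the list was higher there. WT replicate 1 was also the library rich in muscle RNA, and the part of these cells and tissues in the Ikzf2 level was not tested.

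Gata3, a transcription factor of type 2 lymphocytes and a subset of regulatory T cells that the inner root sheath of the hair follicle and epidermis also use (ENSMUSG00000015619, chromosome 2, 9857078 to 9890034, minus strand), was by far the most abundant of the 10. It stood at 135 and 157 CPM in Itch KO against 330 and 248 CPM in WT. Both Itch KO libraries lay clearly below both WT libraries (146 ± 15 CPM in Itch KO and 289 ± 57 CPM in WT, SD, n = 2 each). The log2 fold change was -0.99 (SE 0.21, edgeR adjusted p = 0.115, DESeq2 adjusted p = 0.00236), and -0.77 without WT replicate 1. Rora, a nuclear receptor gene of innate type 2 lymphocytes that many skin cells also express, stood at 140 and 111 CPM against 296 and 229 CPM. Its log2 fold change was -1.06 (SE 0.22, edgeR adjusted p = 0.111, DESeq2 adjusted p = 0.00199). Of 7 tested genes of type 2 lymphocytes, none passed in edgeR after adjustment, and at an unadjusted p under 0.05 there were 4 higher and 1 lower, Rora. Il13 and Klrg1 of this list entered the test only through their Itch KO libraries. DESeq2 called Il1rl1 higher and Rora lower.

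WT replicate 1 had the highest Gata3 level and the lowest inner root sheath sum, 72.4 CPM, whereas the other 3 libraries had 6290 to 9594 CPM. The part of hair follicle and epidermal RNA in the Gata3 level was not tested. Of the 7 matched epidermal genes, none passed in edgeR after adjustment, and an unadjusted p under 0.05 was reached by 1 higher and 2 lower genes, the same 3 that DESeq2 called. Krt14, a basal keratin, stood at 2979 and 3475 CPM in Itch KO against 1617 and 1888 CPM in WT (log2 fold change 0.88, edgeR adjusted p = 0.136, DESeq2 adjusted p = 0.00162). The lower pair was Krt10, a keratin of differentiating keratinocytes, and Lor. Lor, a cornified envelope gene of late keratinocytes, stood at 741 and 781 CPM in Itch KO against 1263 and 1156 CPM in WT (log2 fold change -0.67, edgeR adjusted p = 0.150, DESeq2 adjusted p = 0.00304). The epidermal genes summed to 12036 and 14193 CPM in Itch KO and 12467 and 14239 CPM in WT.

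**Figure D4:**
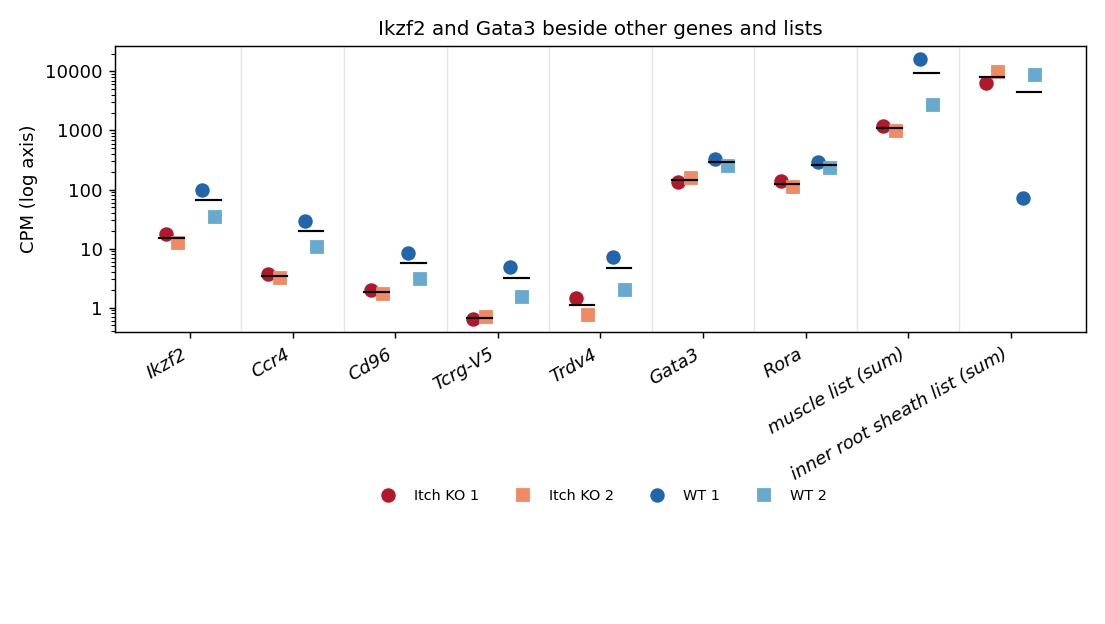
CPM (log axis) of Ikzf2, Ccr4, Cd96, Tcrg-V5, Trdv4, Gata3 and Rora, and summed CPM of the 8 muscle and 10 inner root sheath genes, in each library, Itch KO left of WT. Every gene shown and the muscle sum are highest in WT replicate 1, while the inner root sheath sum is lowest there.

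Per kilobase of merged exons, the levels kept Gata3, Tnfrsf18 and Tnfrsf4 on top in both genotypes. In Itch KO skin the mean levels in CPM per kb were 36.7 for Gata3, 15.7 for Tnfrsf18, 12.3 for Tnfrsf4 and 8.78 for Cd274. Below them came Icos at 2.50, Ctla4 at 1.74, Ikzf2 at 1.29, Il2ra at 1.15, Pdcd1 at 1.13 and Foxp3 at 0.222 CPM per kb. Neighbours in that order overlapped between Tnfrsf4 and Cd274 and all the way from Icos to Pdcd1. In WT skin the mean levels in CPM per kb were 72.7 for Gata3, 16.03 for Tnfrsf18, 10.7 for Tnfrsf4, 5.77 for Ikzf2 and 4.44 for Cd274. Ctla4 followed at 0.909, Il2ra at 0.418, Icos at 0.363, Foxp3 at 0.0835 and Pdcd1 at 0.0672 CPM per kb, with overlap between Ikzf2 and Cd274, Il2ra and Icos, and Foxp3 and Pdcd1. Pdcd1 was thus the lowest in WT skin, whereas Foxp3 was in Itch KO skin, and Ikzf2 stood 7th in Itch KO and 4th in WT.

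General T cell genes did not all stand on one side. Cd3e stood at 6.88 and 5.03 CPM in Itch KO and at 11.8 and 5.81 CPM in WT, and Cd3g at 19.4 and 15.8 CPM against 31.1 and 16.3 CPM. Cd3d, by contrast, stood at 10.3 and 7.90 CPM against 7.0 and 4.86 CPM. Trac, the constant segment of the alpha chain used by conventional T cells, stood at 5.24 and 4.33 CPM against 1.00 and 1.07 CPM (log2 fold change 2.20, SE 0.38, edgeR adjusted p = 0.0884, DESeq2 adjusted p = 0.00453). Cd4 stood at 11.1 and 10.7 CPM against 0.733 and 2.15 CPM (log2 fold change 2.91, SE 0.59, edgeR adjusted p = 0.110, called by DESeq2), and Cd8a stood at 7.77 and 3.19 CPM against 1.27 and 2.90 CPM, with the lower Itch KO library just above the higher WT library. Of 16 T cell genes tested none passed in edgeR after adjustment, 6 were higher at an unadjusted p under 0.05 and 6 were called higher by DESeq2. Their median log2 fold change was 1.00, and 0.58 without Itch KO replicate 1.

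Set against the summed reads of Cd3d, Cd3e and Cd3g, all 5 of Foxp3, Ctla4, Icos, Il2ra and Pdcd1 stood higher in both Itch KO libraries. Pdcd1 had 6.39 and 7.10 reads per 100 Cd3 reads in Itch KO against 0.267 and 0.467 in WT. Icos had 29.9 and 21.7 against 1.07 and 7.24, and Foxp3 had 2.42 and 3.99 against 0.267 and 2.34. Each gave a two-sided exact permutation p = 0.333, the smallest that 2 against 2 libraries allow. Set against Cd4 reads instead, only Pdcd1 kept that order, at 21.1 and 19.05 reads per 100 Cd4 reads in Itch KO against 18.2 and 5.88 in WT. Foxp3 then stood at 8.0 and 10.7 in Itch KO against 18.2 and 29.4 in WT, and Icos overlapped at 98.9 and 58.3 against 72.7 and 91.2, with only 11 and 34 Cd4 counts behind the WT ratios. Ctla4 and Il2ra were, like Foxp3, lower in Itch KO over Cd4 reads. Over the summed reads of Trac and Trbc2, the constant segments of the alpha and beta chains, all 5 genes again stood higher in both Itch KO libraries. Foxp3 then had 3.29 and 4.12 reads per 100 in Itch KO against 0.548 and 2.67 in WT. The direction for Foxp3, Ctla4 and Il2ra therefore turned with Cd4 as the denominator and not with the sum of Trac and Trbc2. Trbc2 made up most of that sum, with 343 and 369 of 426 and 437 counts in Itch KO. In WT it had 350 and 358 of 365 and 375 counts. Trbc2 was level between genotypes (log2 fold change -0.024), whereas Trac stood higher in Itch KO (2.20). That exceeded the log2 fold changes of Foxp3 (1.38), Ctla4 (0.94) and Il2ra (1.46). Trac had 83 and 68 counts in Itch KO against 15 and 17 in WT. Ctla4, with 81 and 47 counts against 37 and 28, lay below Trac in both Itch KO libraries and above it in both WT libraries. Over Trac alone Ctla4 was therefore lower in Itch KO, as over Cd4 reads. The other ratios over Trac alone were not computed.

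**Figure D5:**
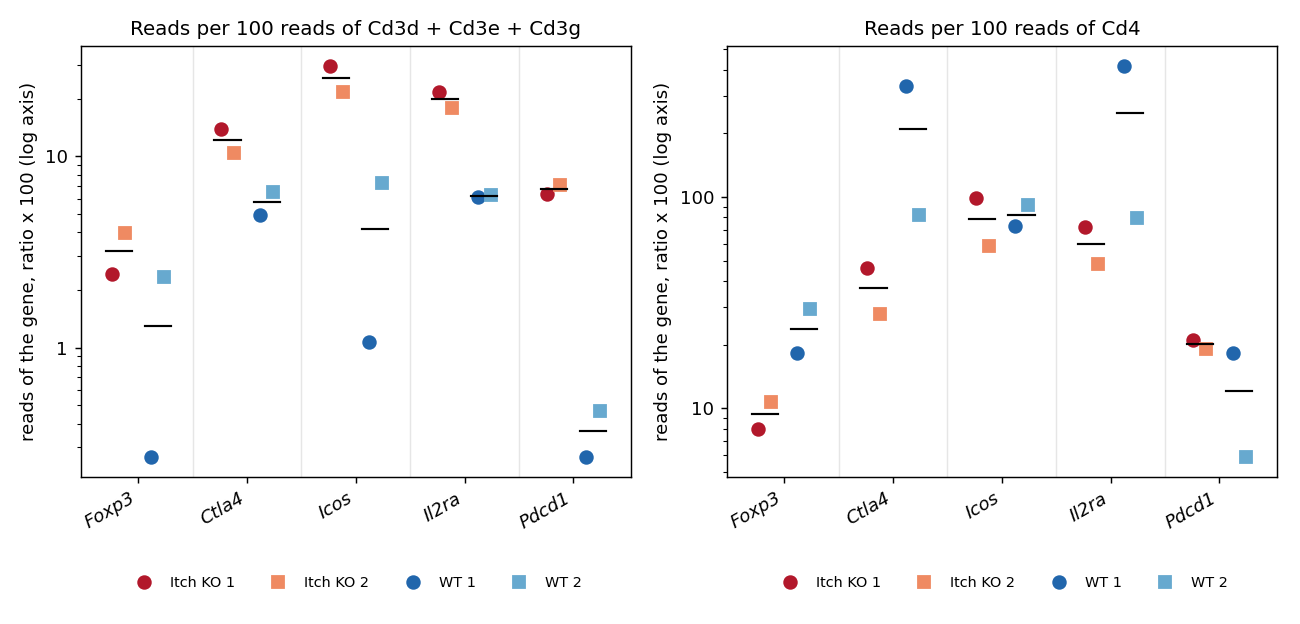
Reads of 5 T cell genes per 100 reads of Cd3d, Cd3e and Cd3g (left) and per 100 reads of Cd4 (right), on log axes, 1 point per library with Itch KO left of WT and lines at group means. Over Cd3 all 5 genes are higher in both Itch KO libraries; over Cd4 only Pdcd1 is, and Foxp3, Ctla4 and Il2ra are lower.

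Most other genes linked with regulatory T cells stood higher in Itch KO skin. Of 22 listed, 20 could be tested, and none passed in edgeR after adjustment. An unadjusted p under 0.05 was reached by 13 with higher and 2 with lower values, Ccr4 and Prdm1. Prdm1 stood at 53.4 and 57.6 CPM in Itch KO against 73.8 and 82.1 CPM in WT. DESeq2 called 11 of the list, 10 of them higher and Ccr4 lower (log2 fold change -2.54, DESeq2 adjusted p = 0.000849). The median log2 fold change of the tested genes was 1.63. Il1rl1, the interleukin-33 receptor that mast cells and type 2 lymphocytes also carry, stood at 53.0 and 79.9 CPM in Itch KO against 2.93 and 5.11 CPM in WT (log2 fold change 4.04, SE 0.41, edgeR adjusted p = 0.0559). Batf, an AP-1 family factor of activated lymphocytes, stood at 14.3 and 13.2 CPM against 0.667 and 1.39 CPM (log2 fold change 3.73, SE 0.47, edgeR adjusted p = 0.0676). Tnfrsf1b, the type 2 tumour necrosis factor receptor also made by myeloid cells, stood at 120 and 62.3 CPM against 17.6 and 15.5 CPM, and Tnfrsf9 (4-1BB) at 7.33 and 7.45 CPM against 1.40 and 1.70 CPM. Ccr8, Klrg1 and Il10 of this list entered the test only through their Itch KO libraries. Many of these genes are shared with myeloid cells. The macrophage and monocyte genes summed to 2920 and 1888 CPM in Itch KO against 383 and 371 CPM in WT, and the 8 genes of mast cells, basophils and eosinophils to 262 and 462 CPM against 77.9 and 154 CPM. Their part in these levels was not tested.

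Most other checkpoint genes stood higher as well. Of 18 tested, none passed in edgeR after adjustment, 8 were higher at an unadjusted p under 0.05, DESeq2 called 4 higher, and the median log2 fold change was 0.86. Cd200r1, an inhibitory receptor of myeloid cells and mast cells, stood at 14.5 and 10.1 CPM in Itch KO against 1.8 and 2.27 CPM in WT (log2 fold change 2.59, SE 0.37, edgeR adjusted p = 0.0750). Cd40, the receptor for CD40 ligand on antigen-presenting cells, stood at 15.98 and 8.09 CPM against 1.53 and 1.96 CPM. Tigit, an inhibitory receptor of T and natural killer cells, had 20 and 22 counts in Itch KO against 5 and 3 in WT (log2 fold change 2.32, SE 0.51, edgeR adjusted p = 0.118, DESeq2 adjusted p = 0.161), and entered the test only through its Itch KO libraries, as did Cd40lg. Lgals9, encoding galectin-9, stood at 111 and 87.9 CPM against 59.5 and 57.0 CPM. Among the 8 tested ligands and partner chains of the 10 genes, 5 were higher at an unadjusted p under 0.05, the same number was called higher by DESeq2, and the median log2 fold change was 1.34.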

How the data were processed

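Skin RNA of 2 Itch KO and 2 WT libraries was compared. The deposited values are read counts per Ensembl gene, 1 file per library and not normalized. Per the submitters' processing notes, the tools named are HTSeq 0.6.1, SAMtools 0.1.19, TopHat2 and CASAVA 1.8.2, with build mm10 (GRCm38). Annotation release and strand setting: not given in the sources used here. The 5 counter lines stayed out of library sizes: reads without a feature were 6.79% and 5.68% of reads in Itch KO and 7.45% and 6.80% in WT, and ambiguous reads 4.50% and 4.70%, against 4.61% and 4.48%. Symbols, places and exon lengths came from GENCODE vM21, which held 37607 of 39179 identifiers.

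Counts were fitted in R 4.3.3 with edgeR 4.0.16 (filterByExpr, minimum count 10; TMM scaling; quasi-likelihood F test with legacy and robust settings; Benjamini-Hochberg adjustment over 16651 genes; threshold 0.05). CPM uses TMM-scaled library sizes. The edgeR SE is the log2 fold change divided by the square root of F. DESeq2 1.42.0 and limma-voom (limma 3.58.1), other scalings and filters, a replicate block and leaving out each library were alternatives. Scripts were tested on simulated counts. Floors and intervals cover counting error only. Libraries of a group differed beyond sampling noise (chi-square per degree of freedom 23.5 in Itch KO and 109 in WT).

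The 10 genes and the 16 companion lists (166 genes; 4 symbols had no match) were chosen with earlier results of these data known. Named genes were the 10, their ligands and partners, Itch, Cd3d, Cd3e, Cd3g, Cd4, Cd8a and, by smallest edgeR p, up to 4 or 2 genes of each list; of these, members of lists that bear on no result are not described. Ccr4, Cd96, Ifng, Cxcl9, Cxcl10, Gbp2, Krt5, Krt10, Cd40lg, Ccr8, Klrg1, Il5, Il9, Il12a, Il4, Il13, Il10 and Areg were named after their values were seen. So were Trbc2, Prdm1, Sox13, Cd163l1, Blk, Cd14, Tgfb1 and Ebi3.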

Additional observations from a re-analysis of the deposited data

How the results depend on the processing

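The number of calls depended on the tool, the filter and single libraries. The count of the 10 genes that passed was 0 in edgeR, 1 without a filter on low counts (Pdcd1) and 4 in DESeq2. Calls also moved with 1 library left out, among the 10 genes and among all genes. Such a fit has a single library in 1 genotype, which takes its spread from the other pair. For single genes only fold changes are therefore given from these fits. The counts of genes given below for these fits show only how far the number moved when a library was left out. They are not evidence of a difference between the genotypes. At an unadjusted p under 0.05 the 5 genes became 1 to 6 with a library left out, the lowest without Itch KO replicate 1. With 1 library left out, the median log2 fold change of the 10 genes ranged from 0.38 to 1.23, the lowest without Itch KO replicate 1. Over all genes, 1 call became 488 without a filter, 2329 in DESeq2, 0 in limma-voom, 0 with the replicate block, and 0 to 5320 with a library left out; at an unadjusted p under 0.05 the count ranged from 1432 to 7645 in those fits. Calls among the companion genes numbered 1 (Y-linked Eif2s3y), and became 26 without a filter, 66 in DESeq2, 0 in limma-voom, 0 with the replicate block, and 0 to 90 with a library left out. The count of 5 genes higher over Cd3 reads became 1 over Cd4 reads. It was unchanged over the summed Trac and Trbc2 reads, most of which were Trbc2, whereas over Trac alone Ctla4 was lower in Itch KO. Directions turned for Cd274 without Itch KO replicate 1, Tnfrsf18 without a filter (0.0013), without Itch KO replicate 1 (0.077) and without WT replicate 1, and, without WT replicate 1, for Cd3e, Cd3g and Tnfsf18. With 1 library left out the log2 fold change ranged from -0.0079 to 1.57 for Cd274, -0.20 to 0.17 for Tnfrsf18, -0.98 to 0.033 for Cd3e, -0.82 to 0.10 for Cd3g and -2.12 to 0.43 for Tnfsf18. The cause was not tested. Same-numbered libraries deviated together with r = 0.186 over genes, and nothing in the labels pairs them; the replicate block left 0 of the 10 genes called. Foxp3 left the test under the stricter filter.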

Other observations

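Of the listed cytokine genes, 4 that were picked after their values were seen stood higher in both Itch KO libraries. Il10, an anti-inflammatory cytokine also made by macrophages, had 28 and 24 counts in Itch KO against 1 and 3 in WT (edgeR adjusted p = 0.0873, DESeq2 adjusted p = 0.0288), and entered the test only through its Itch KO libraries. Il4 had 50 and 76 counts in Itch KO against 24 and 24 in WT (edgeR adjusted p = 0.175), and Il13, which also entered only through Itch KO, had 18 and 14 against 4 and 3 (edgeR adjusted p = 0.134). Areg, the epidermal growth factor receptor ligand amphiregulin, stood at 35.5 and 53.6 CPM in Itch KO against 2.33 and 11.2 CPM in WT (edgeR adjusted p = 0.175, DESeq2 adjusted p = 0.00431). Among other listed cytokine genes, Tgfb1 and Ebi3 also stood higher in both Itch KO libraries. Tgfb1 stood at 85.3 and 76.5 CPM in Itch KO against 26.1 and 36.1 CPM in WT, and Ebi3 at 2.21 and 2.36 CPM against 0.533 and 0.694 CPM. Il5 had 1 count in every library, Il9 had 1 and 0 counts in Itch KO against 0 and 0 in WT, and Il12a had 9 and 4 against 16 and 4. Il10, Il4, Il13 and Areg stood higher in the same libraries in which Gata3 stood lower, at 135 and 157 CPM in Itch KO against 330 and 248 CPM in WT.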
